A study of Mus musculus and Rattus norvegicus with 30 samples.

Results

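The 12 rat libraries of this series, of 30 libraries in all, were made to ask which actions of the agonist 915 need its receptors. The comparison described here is the 915 effect in neonatal rat ventricular myocytes (NRVM) whose ERR alpha and ERR gamma transcripts were knocked down, minus the 915 effect in myocytes given a scramble siRNA. All 15181 genes that passed the count filter were tested, and genes are described by whether their 915 effect was lost, kept or changed by the knockdown. The 4 groups, of 3 libraries each, were double-knockdown (DKD) cells with 915, DKD cells with DMSO vehicle, scramble (S) cells with 915 and S cells with DMSO vehicle. 915 was given at 10 µM for 24 h, and the protocol names 25 nM siRNA as typical. Every culture came from ventricles of rat pups at postnatal day 3, carried a transfected siRNA, and had been grown with bromodeoxyuridine after fibroblasts were allowed to attach to plastic. The remaining 18 libraries came from mouse hearts given another agonist and were not used. Poly(A) RNA was sequenced without strand information, the libraries held 12013379 to 18315341 counts, and the labels do not say whether replicates came from separate isolations, so p-values measure the spread between libraries, which may be technical.

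The ERR proteins, which resemble the estrogen receptors, are orphan nuclear receptors that bind DNA without a known natural hormone and recruit the PGC-1 coactivators. In heart muscle they are known for driving genes of fatty acid oxidation, the TCA cycle, the respiratory chain and the mature contractile apparatus. A compound that acts through these receptors should lose its action on a gene when the receptors are removed, whereas an action through another protein would remain, and knockdown by siRNA leaves part of the receptor in place.

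Knockdown was visible for both targeted transcripts. Esrra, the gene of ERR alpha (ENSRNOG00000021139, rn6 chromosome 1, 222168730 to 222178725), had 12.7, 13.4 and 18.9 CPM in DKD cells with 915 and 13.98, 21.9 and 16.1 CPM in DKD cells with vehicle, against 227, 228 and 229 CPM in S cells with 915 and 199, 178 and 169 CPM in S cells with vehicle. Esrrg, the gene of ERR gamma (ENSRNOG00000002593, rn6 chromosome 13, 106463368 to 106683436), had 25.1, 16.1 and 22.2 CPM in DKD cells with 915 and 18.7, 18.1 and 17.5 CPM in DKD cells with vehicle, against 263, 273 and 302 CPM in S cells with 915 and 131, 130.3 and 131 CPM in S cells with vehicle. CPM are counts scaled to a library of 1000000. For both genes the 6 DKD libraries lay below all 6 S libraries, and a residual level remained in each. Esrrb, the gene of ERR beta, which the genotype label does not name as a target although the protocol lists an siRNA against it, had 1.49, 1.49 and 1.78 CPM with 915 and 1.06, 0.665 and 1.19 CPM with vehicle in DKD cells. In S cells Esrrb had 5.68, 6.17 and 6.97 CPM with 915 and 3.29, 3.01 and 4.43 CPM with vehicle. Esrrb was thus also lower in DKD cells, by edgeR, with a log2 difference from S cells of −1.98 (adjusted p = 1.38e-06) with 915 and −1.88 (adjusted p = 1.06e-05) with vehicle. Whether these cultures received that siRNA is not stated, so the 3 receptors cannot be told apart in what follows.

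The cultures held cardiomyocyte transcripts and also transcripts of other heart cells, and their summed levels moved with the groups. The 11 tested cardiomyocyte markers together gave 10540 to 13550 CPM in DKD cells with 915 and 12710 to 13020 CPM in DKD cells with vehicle, against 25180 to 25990 CPM in S cells with 915 and 18650 to 20850 CPM in S cells with vehicle. Thus the summed marker level was higher with 915 in S cells without overlap, and in DKD cells the ranges with and without 915 overlapped. Abundant genes weigh most in this sum: in S cells the mean of Actc1 was 3710 CPM higher with 915 and that of Mybpc3 1119 CPM higher. Single markers went both ways, as 6 of the 11 rose and 2 fell in S cells, and 3 rose and 3 fell in DKD cells. The 12 fibroblast markers gave 8149 to 10120 CPM with 915 and 12130 to 13350 CPM with vehicle in DKD cells, against 6984 to 7621 CPM with 915 and 12700 to 13560 CPM with vehicle in S cells. The 8 smooth muscle and pericyte markers gave 4034 to 4407 CPM with 915 and 6536 to 7230 CPM with vehicle in DKD cells, against 3654 to 4126 CPM with 915 and 6454 to 6582 CPM with vehicle in S cells. Endothelial markers (7) summed to 251 to 302 CPM with 915 and 301 to 350 CPM with vehicle in DKD cells, against 188 to 208 CPM with 915 and 276 to 295 CPM with vehicle in S cells. Macrophage and leukocyte markers (6) summed to 72.6 to 96.6 CPM with 915 and 60.4 to 64.7 CPM with vehicle in DKD cells, against 45.5 to 46.9 CPM with 915 and 37.2 to 40.5 CPM with vehicle in S cells. In such bulk RNA, fewer cells of a type, less RNA per cell and a change of a few abundant markers cannot be told apart by these sums. The part of these shifts in the gene results was not tested.

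The size of the 915 effect differed between DKD and S cells for 566 of the 15181 genes (3.73%; edgeR quasi-likelihood test of the difference, Benjamini-Hochberg adjusted over all tested genes, threshold 0.05). In 302 of them (1.99%) the effect was more negative in DKD cells and in 264 (1.74%) more positive, and 39 differed by at least 2-fold. At an unadjusted p under 0.05 the number was 2479. In DKD cells 915 raised 2745 genes (18.1%) and lowered 2673 (17.6%), against 3268 raised (21.5%) and 3132 lowered (20.6%) in S cells. Counts of rises and falls in the gene lists below are to be read beside these shares. The lists were chosen with earlier results of these data known, so their shares and ranks describe the lists and are not independent support. The count of 566 depended on single libraries: it was 365 without DKD 915 replicate 2, 305 without DKD vehicle replicate 1, 359 without DKD vehicle replicate 3, 259 without S 915 replicate 3 and 321 without S vehicle replicate 2. It was higher, at 677, without DKD 915 replicate 3 and 587 without DKD 915 replicate 1. Between those fits and the fit on all libraries, no gene called in both had the opposite sign. Equal signs are favoured there, since every library of such a fit is also in the full fit.

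Most called differences were reductions of an effect seen in S cells. Of the genes that 915 raised in S cells, 237 had a smaller rise or none in DKD cells: 133 had no called 915 effect there (lost), 77 still rose (partly kept) and 27 fell (turned). Of the genes that 915 lowered in S cells, 209 were less lowered in DKD cells, with 77 lost, 121 partly kept and 11 turned. Another 97 genes had a called effect only in DKD cells with a called difference (gained; 47 rose and 50 fell), and 23 had a larger effect in the same direction there (enlarged; 8 rose and 15 fell). A lost effect is one that missed the threshold in DKD cells, which does not show that it was absent. The lost rises had a median effect of −0.02 in DKD cells, against 0.42 in S cells, and the lost falls −0.02, against −0.53 (log2). On the scale of CPM, without logarithms, the change was smaller in DKD cells for all 133 lost rises, all 77 partly kept rises, 76 of the 77 lost falls and 118 of the 121 partly kept falls. Among genes called in S cells without a called difference, kept effects (defined below) aside, it was smaller for 2252 of 3005 rises and 2131 of 2836 falls. Reduction is favoured by the way these classes are built, since the effect in S cells was called from libraries that also enter the difference. Among the 6400 genes called in S cells 469 had a called difference, so shares over all tested genes are a low baseline for lists that respond to 915. Lost and partly kept rises had median levels of 87.1 and 91.0 CPM, and lost and partly kept falls 42.1 and 90.7 CPM, against 23.3 CPM over all tested genes. The list shares below were not adjusted for level.

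**Figure D1:**
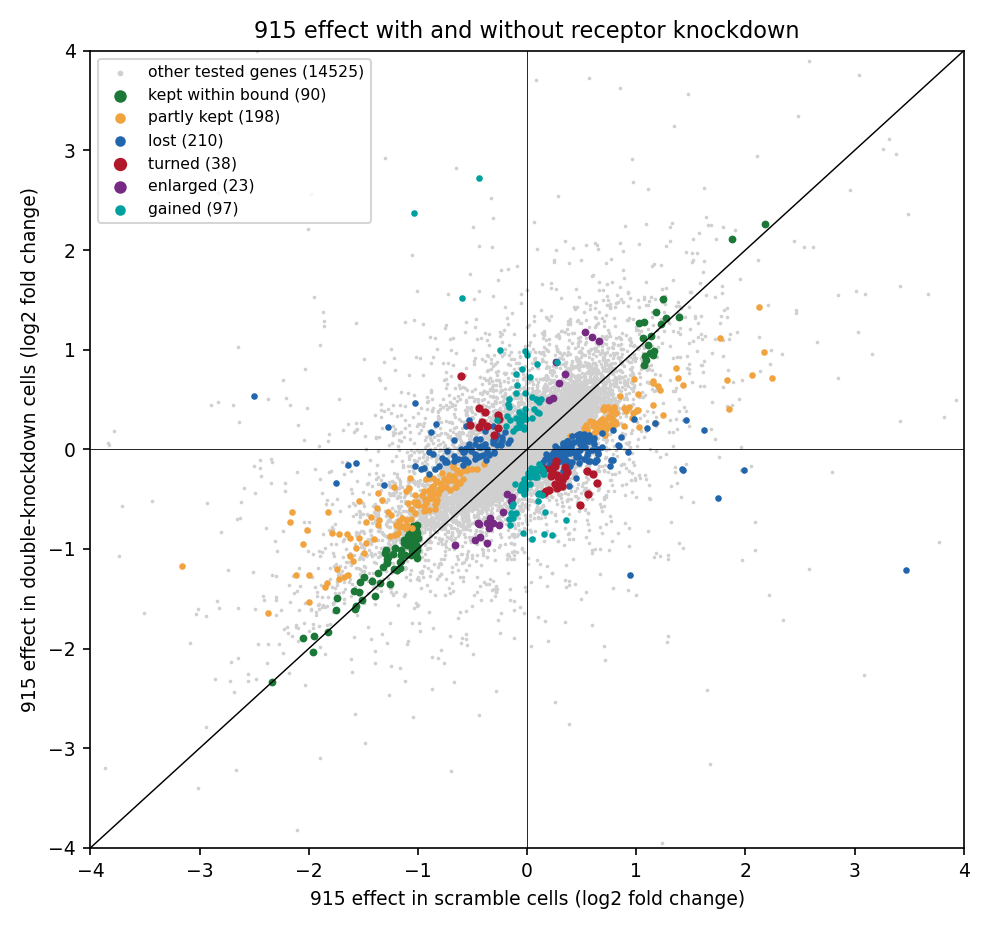
Each point is 1 of 15181 tested genes, with the 915 effect in scramble cells on the horizontal axis and the 915 effect in double-knockdown cells on the vertical axis, both as log2 fold changes of 915 over vehicle with 3 libraries per group; the diagonal marks equal effects, colours mark the classes, and 16 genes lie outside the axes. Lost effects (210 genes) lie along the horizontal line at 0, partly kept effects (198) between that line and the diagonal, and the 90 effects kept within ±0.5 along the diagonal.

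The greater part of the 915 response had no called difference. Of the 6400 genes called in S cells, 4047 were called with the same sign in DKD cells, 3826 of these without a called difference, and 38 were called with the opposite sign. A further 2105 were called in S cells only, without a called difference, so whether they depend on the receptors was not settled at this depth. Among the 6400 genes 93.1% had the same sign in both kinds of cell, and the median ratio of the effect in DKD cells to that in S cells was 0.709. Over the same genes the 2 effects correlated with a Pearson r of 0.849 and a Spearman rho of 0.883, as a description across genes, which are not independent and were measured in the same 12 libraries. Over all tested genes 76.7% had the same sign, with a Pearson r of 0.611 and a Spearman rho of 0.670. Choosing genes by their call in S cells favours larger effects there, and so a smaller ratio. An effect is called kept here only if it was at least 1 on the log2 scale in S cells and the 95% interval of the difference lay within ±0.5. That held for 18 of the 212 rises and 72 of the 682 falls of at least 2-fold in S cells, while 30 of those rises and 71 of those falls were reduced.

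The receptors' own circuit showed no called rise with 915 in DKD cells and several in S cells. Of 9 tested genes of the ERR family and its coactivators, 0 rose in DKD cells and 4 in S cells, and the difference was called negative in 3 (33.3% of the list, against 1.99% of all tested genes), positive in 0. The median effect of the list was −0.004 in DKD cells and 0.32 in S cells (log2), against −0.001 and 0.007 over all tested genes. Perm1, a muscle regulator that works with PGC-1 and ERR (ENSRNOG00000020244, rn6 chromosome 5, 173640780 to 173646073), had 7.71, 7.80 and 8.12 CPM with 915 and 8.69, 7.98 and 7.48 CPM with vehicle in DKD cells. In S cells Perm1 had 195, 179 and 214 CPM with 915 and 103, 104 and 104 CPM with vehicle. The 2 DKD groups overlapped, whereas every S library with 915 lay above every S library with vehicle, and the log2 effects of −0.03 in DKD cells and 0.92 in S cells differed by −0.95 (SE 0.12, adjusted p = 2.31e-05). Esrrg itself followed the same pattern, with the values given above: its log2 effect was 0.22 in DKD cells and 1.10 in S cells, a difference of −0.88 (SE 0.15, adjusted p = 0.00482). The siRNA targets the Esrrg transcript itself, and its part in the level in DKD cells cannot be told apart from a response. Ppargc1b, the gene of the coactivator PGC-1 beta, had 26.9, 30.5 and 39.97 CPM with 915 and 35.3, 32.4 and 30.3 CPM with vehicle in DKD cells. In S cells Ppargc1b had 85.1, 76.8 and 86.3 CPM with 915 and 57.5, 51.6 and 54.9 CPM with vehicle. Its difference of −0.60 (SE 0.15, adjusted p = 0.0371) missed the threshold when any of 8 libraries was left out (adjusted p = 0.0508 to 0.116: DKD 915 replicate 2, DKD vehicle replicates 1 and 2, S 915 replicates 1 and 3, and all 3 S vehicle replicates). Ppargc1a, the gene of PGC-1 alpha, was not called in either kind of cell (log2 effects −0.16 and 0.04), and the differences of Esrra at −0.52 and Esrrb at −0.10 were not called.

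Markers of cardiac stress held the largest share of called negative differences among the lists, which were chosen with earlier results of these data known. Of 14 tested members, 6 had a called negative difference (42.9%, against 1.99% of all genes) and 0 a positive one, and this count was 6 or 7 whichever library was left out. Nppb, which encodes the heart peptide BNP (ENSRNOG00000008141, rn6 chromosome 5, 164796185 to 164797531), had 186, 160.1 and 237 CPM with 915 and 108, 125 and 123 CPM with vehicle in DKD cells. In S cells Nppb had 679, 629.5 and 717 CPM with 915 and 150.2, 125 and 153 CPM with vehicle. It rose in both kinds of cell without overlap between 915 and vehicle libraries, by 0.72 in DKD cells and 2.24 in S cells on the log2 scale, a difference of −1.53 (SE 0.20, adjusted p = 0.00527). Xirp2, an actin-binding protein of the intercalated disc (ENSRNOG00000034258, rn6 chromosome 3, 53563194 to 53658132), had 219, 183 and 235 CPM with 915 and 167, 152 and 161 CPM with vehicle in DKD cells. In S cells Xirp2 had 479.6, 458 and 483 CPM with 915 and 129.5, 129.8 and 135 CPM with vehicle. Its vehicle level was thus somewhat higher in DKD cells, and every DKD library with 915 stayed below every S library with 915, with a difference of the log2 effects of −1.44 (SE 0.09, adjusted p = 1.30e-08). Ankrd1, a titin-associated stress protein, had 1575, 1403 and 1700.1 CPM with 915 and 1472, 1569 and 1498 CPM with vehicle in DKD cells, which overlapped. In S cells Ankrd1 had 2923, 2986 and 3034 CPM with 915 and 1724, 1599 and 1690.3 CPM with vehicle, which did not overlap. The effects on Ankrd1 differed by −0.79 (SE 0.08, adjusted p = 1.85e-06). Rcan1, an inhibitor of the phosphatase calcineurin, rose by 0.63 in DKD cells and 1.2 in S cells (difference −0.57, SE 0.08, adjusted p = 7.82e-05). The remaining called members were Fhl1, one of the turned effects, and Fhl2, a LIM-domain protein of the heart, which fell by 0.57 in DKD cells with an uncalled effect of −0.13 in S cells (difference −0.43). Nppa, which encodes the sister peptide ANP, rose by 0.62 in DKD cells and 0.68 in S cells, with a difference of −0.06 that was not called. Outside the list, Spp1, the gene of the matrix protein osteopontin, had 95.1, 111 and 79.9 CPM with 915 and 85.7, 83.9 and 81.7 CPM with vehicle in DKD cells. In S cells Spp1 had 244, 247 and 241 CPM with 915 and 84.5, 68.1 and 85.9 CPM with vehicle, with overlap in DKD cells alone. The effects on Spp1 differed by −1.43 (SE 0.16, adjusted p = 0.000484).

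Genes of the sarcomere split in the same direction. Of 22 tested members, 7 had a called negative difference (31.8%) and 0 a positive one, and the median effect was −0.02 in DKD cells and 0.21 in S cells. Actc1, the cardiac alpha-actin, had 3046, 2605 and 3366 CPM with 915 and 3230.0, 3152 and 3356 CPM with vehicle in DKD cells. In S cells Actc1 had 9142, 8816 and 9068 CPM with 915 and 5424, 4930.4 and 5542 CPM with vehicle. The 2 DKD groups overlapped and the 2 S groups did not, and the difference was −0.88 (SE 0.10, adjusted p = 1.15e-05). Mybpc3, the cardiac myosin-binding protein, showed the same picture with 963, 869 and 1153 CPM with 915 and 1075, 1103 and 1042 CPM with vehicle in DKD cells. In S cells Mybpc3 had 3108, 3109 and 3173 CPM with 915 and 2156, 1889 and 1988 CPM with vehicle. The effects on Mybpc3 differed by −0.75 (SE 0.11, adjusted p = 0.00062). Nrap, an actin-anchoring protein, had an uncalled effect of −0.12 in DKD cells and rose by 0.55 in S cells (difference −0.67, SE 0.09, adjusted p = 6.51e-05). Acta1, the skeletal alpha-actin, rose by 0.26 in DKD cells and 0.81 in S cells (difference −0.54), and reads shared between similar actin transcripts make the split between Acta1 and Actc1 uncertain.

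Other sarcomeric differences came from falls present in DKD cells. Ldb3, a protein of the Z disc, had 164, 136 and 183 CPM with 915 and 310.5, 301 and 290.1 CPM with vehicle in DKD cells. In S cells Ldb3 had 634, 612 and 697 CPM with 915 and 651, 598 and 636 CPM with vehicle. It fell in DKD cells without overlap and its S groups overlapped (difference −0.95, SE 0.12, adjusted p = 0.000458). Actn2, the sarcomeric alpha-actinin, had 831, 735 and 849.9 CPM with 915 and 1368, 1346 and 1366 CPM with vehicle in DKD cells. In S cells Actn2 had 992, 1008 and 1017 CPM with 915 and 1244, 1121 and 1247 CPM with vehicle. It fell in both, more so in DKD cells (difference −0.50, SE 0.08, adjusted p = 0.000329). Tpm1, a tropomyosin, fell by 0.34 in DKD cells, with an uncalled effect of −0.02 in S cells (difference −0.32). Myh6, the adult rodent myosin heavy chain, had 196, 177 and 257 CPM with 915 and 444, 418 and 409 CPM with vehicle in DKD cells. In S cells Myh6 had 1335, 1213 and 1455 CPM with 915 and 1671, 1595 and 1676 CPM with vehicle. Its difference of −0.71 (SE 0.17, adjusted p = 0.0631) was not called by edgeR with all libraries, but was with a stricter count filter (adjusted p = 0.0448) and by DESeq2 (adjusted p = 0.00636). DKD 915 replicate 3 was the highest of its group for Myh6 and for Myh7, the slow myosin heavy chain, which had 445, 483 and 674 CPM with 915 and 695, 697 and 669.6 CPM with vehicle in DKD cells. In S cells Myh7 had 2511, 2771 and 2568 CPM with 915 and 2821, 2549 and 2776 CPM with vehicle. The difference for Myh7 was −0.31 (SE 0.19, adjusted p = 0.475). Without that library Myh6 (−0.88, adjusted p = 1.56e-06) and Myh7 (−0.51, adjusted p = 0.000113) were called, and 13 of the 22 sarcomeric genes had a called negative difference. The coding sequences of Myh6 and Myh7 are alike, so the division of their reads is uncertain. Of the 11 cardiomyocyte markers summed above, 3 had a called negative difference (Actc1, Actn2 and Mybpc3), and 8 without DKD 915 replicate 3.

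**Figure D2:**
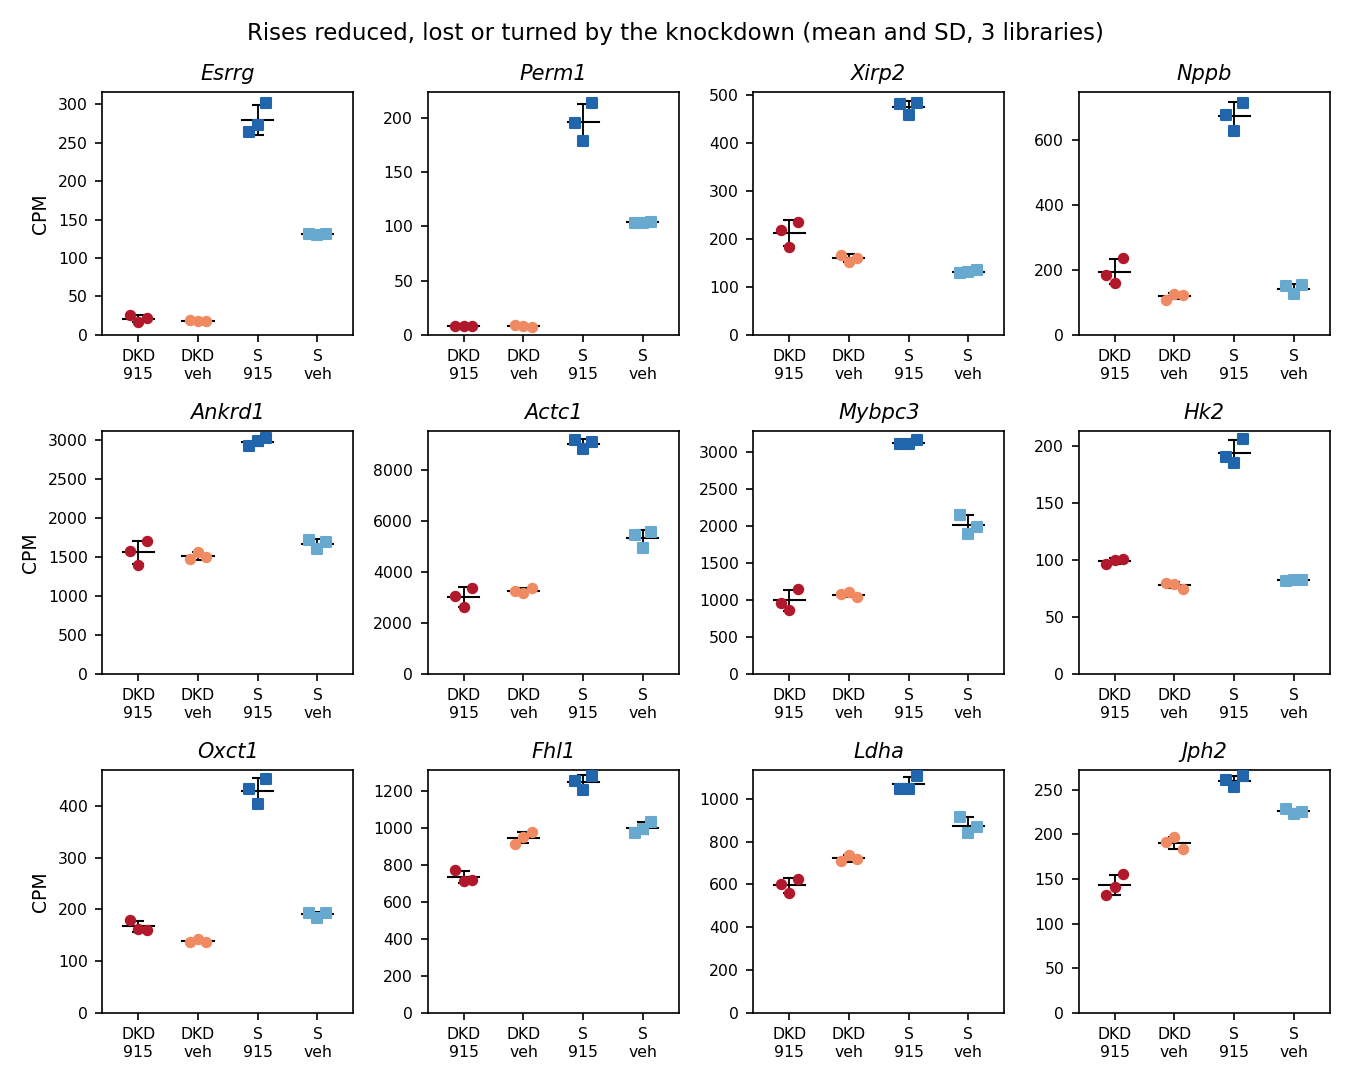
CPM of 12 genes in each library, for double-knockdown (DKD) and scramble (S) cells with 915 or vehicle (veh), with the mean as a horizontal line and the SD as an error bar over 3 libraries; each panel has its own linear axis from 0. Perm1, Ankrd1, Actc1 and Mybpc3 overlap between 915 and vehicle in DKD cells and not in S cells, and in the panels of Fhl1, Ldha and Jph2 915 lies below vehicle in DKD cells and above it in S cells.

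In glucose metabolism the largest called reduction was at the entry step. Of 21 tested genes of glucose uptake and glycolysis, 6 had a called negative difference (28.6%) and 0 a positive one. Of the 21, 7 rose in DKD cells and 12 in S cells, against 18.1% and 21.5% of all tested genes. Hk2, the inducible hexokinase (ENSRNOG00000006116, rn6 chromosome 4, 113559427 to 113610243), had 96.4, 99.7 and 101 CPM with 915 and 79.9, 78.8 and 74.8 CPM with vehicle in DKD cells. In S cells Hk2 had 190.3, 185 and 207 CPM with 915 and 81.04, 82.3 and 82.7 CPM with vehicle. The kinds of cell lay near each other with vehicle and far apart with 915 (difference −0.89, SE 0.08, adjusted p = 7.22e-08). Gbe1, the glycogen branching enzyme, rose by 0.24 in DKD cells and 0.89 in S cells (difference −0.65, SE 0.09, adjusted p = 0.000109), and Pgam1, a mutase of glycolysis, had an uncalled effect of −0.04 in DKD cells and a rise of 0.26 in S cells (difference −0.30, SE 0.07, adjusted p = 0.011). The called members were completed by Hk1, another hexokinase (difference −0.27), Ldhb, a lactate dehydrogenase subunit (−0.28), and Ldha, which turned. The glucose transporters Slc2a1 and Slc2a4 rose in both kinds of cell, by 1.05 and 0.99 in DKD cells and 1.10 and 1.17 in S cells, and their differences were not called.

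In ketone body oxidation the activating step rose less after the knockdown. Oxct1, the enzyme that activates ketone bodies for oxidation (ENSRNOG00000043094, rn6 chromosome 2, 53859737 to 54007756), had 179, 161 and 160.1 CPM with 915 and 137, 143 and 137 CPM with vehicle in DKD cells. In S cells Oxct1 had 432, 403 and 452 CPM with 915 and 193, 184 and 193 CPM with vehicle. It rose in both without overlap, by 0.26 in DKD cells and 1.18 in S cells (difference −0.91, SE 0.08, adjusted p = 4.72e-08). Of the 19 tested genes of ketone body and branched-chain amino acid oxidation, 6 rose in DKD cells and 15 in S cells. The shares over all tested genes were 18.1% and 21.5%. Of the 19, 3 had a called negative difference (15.8%). The count was 1 without DKD 915 replicate 2, DKD vehicle replicate 1, S 915 replicate 3 or S vehicle replicate 2, since Ivd (difference −0.36), an enzyme of leucine breakdown, and Slc16a1 (−0.31), a carrier of lactate and ketone bodies, were then not called.

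In the TCA cycle 5 of 21 tested genes rose in DKD cells and 12 in S cells, against 18.1% and 21.5% of all tested genes. Of the 21, 4 had a called negative difference (19.0%). Idh2, the mitochondrial isocitrate dehydrogenase that makes NADPH, had 141, 138 and 159 CPM with 915 and 147, 139 and 139 CPM with vehicle in DKD cells, which overlapped. In S cells Idh2 had 585, 611 and 629 CPM with 915 and 444, 417 and 437 CPM with vehicle, which did not overlap. The effects on Idh2 differed by −0.44 (SE 0.08, adjusted p = 0.000864). The other called members, Ogdh (−0.37), Dlst (−0.23) and Got2 (−0.29), lost their calls without single libraries, and Dlst was also not called with RLE factors, with either other count filter or without mitochondrially encoded genes (adjusted p = 0.0506 to 0.0561). The TCA count was 2 without DKD 915 replicate 1, DKD vehicle replicate 2 or S 915 replicate 2, and 1 without DKD 915 replicate 2, DKD vehicle replicate 1, S 915 replicate 3 or S vehicle replicate 2. Among 19 genes of mitochondrial biogenesis, dynamics and carriers 6 rose in DKD cells and 15 in S cells, and 3 had a called negative difference (15.8%). Slc25a5, an ADP/ATP carrier, had 175, 169 and 185 CPM with 915 and 151, 161 and 156 CPM with vehicle in DKD cells. In S cells Slc25a5 had 488, 476 and 511 CPM with 915 and 326, 293 and 308 CPM with vehicle. The effects on Slc25a5 differed by −0.49 (SE 0.07, adjusted p = 0.000184). Slc25a3, the phosphate carrier, had an uncalled effect of −0.10 in DKD cells and a rise of 0.25 in S cells (difference −0.35, SE 0.07, adjusted p = 0.00259), and Vdac1, a pore of the outer membrane, differed by −0.37 and missed the threshold without S 915 replicate 3 (adjusted p = 0.053). Slc6a8, the creatine transporter and the 1 called of 8 genes of oxygen storage and the phosphocreatine shuttle, rose by 0.42 in DKD cells and 0.93 in S cells (difference −0.51, SE 0.08, adjusted p = 0.000283).

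Most respiratory chain subunits rose with 915 in both kinds of cell, with medians of like size. Of 29 tested subunits of complex I, 20 rose in DKD cells and 26 in S cells, and none fell in either. Their median effect was 0.33 in DKD cells and 0.34 in S cells, and for 23 of the 29 the 95% interval of the difference lay within ±0.5, against 48.3% of all tested genes. Of 34 tested genes of complexes II to V and cytochrome c, 19 rose in DKD cells and 27 in S cells, with median effects of 0.29 and 0.33 and 30 intervals within ±0.5. A called difference was found for 2 genes of each list, among them Ndufs1 (−0.39) of complex I, Uqcrc2 (−0.26) of complex III and Cycs (−0.31), cytochrome c. These calls were fragile: without S 915 replicate 3 or DKD vehicle replicate 3 both lists held 0, and without DKD 915 replicate 3 the second list held 7. A single entry, Atp5f1, had a difference of −6.04 on counts that scattered within groups and was not called. Ndufs1 had 118, 111 and 126 CPM with 915 and 124, 117 and 133 CPM with vehicle in DKD cells, which overlapped. In S cells Ndufs1 had 262, 259 and 279 CPM with 915 and 218, 193 and 229.5 CPM with vehicle, which did not overlap. Of the 13 protein genes of mitochondrial DNA, 9 rose in DKD cells and 11 in S cells, with medians of 0.31 and 0.37, and 0 had a called difference by edgeR or DESeq2 or an unadjusted p under 0.05 by edgeR. For these 12 of 13 intervals lay within ±0.5. In each of these lists the median effect was below 0.5, so a rise that is lost can also leave an interval within ±0.5. Cycs, a lost rise, had an interval of −0.48 to −0.14. These counts of intervals therefore do not show that the rises were kept. The mitochondrial genome took 5.99% to 6.88% of counts in DKD cells with 915 and 4.41% to 5.16% in DKD cells with vehicle, against 7.51% to 7.77% in S cells with 915 and 5.65% to 6.71% in S cells with vehicle, without overlap between 915 and vehicle in either kind of cell.

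**Figure D3:**
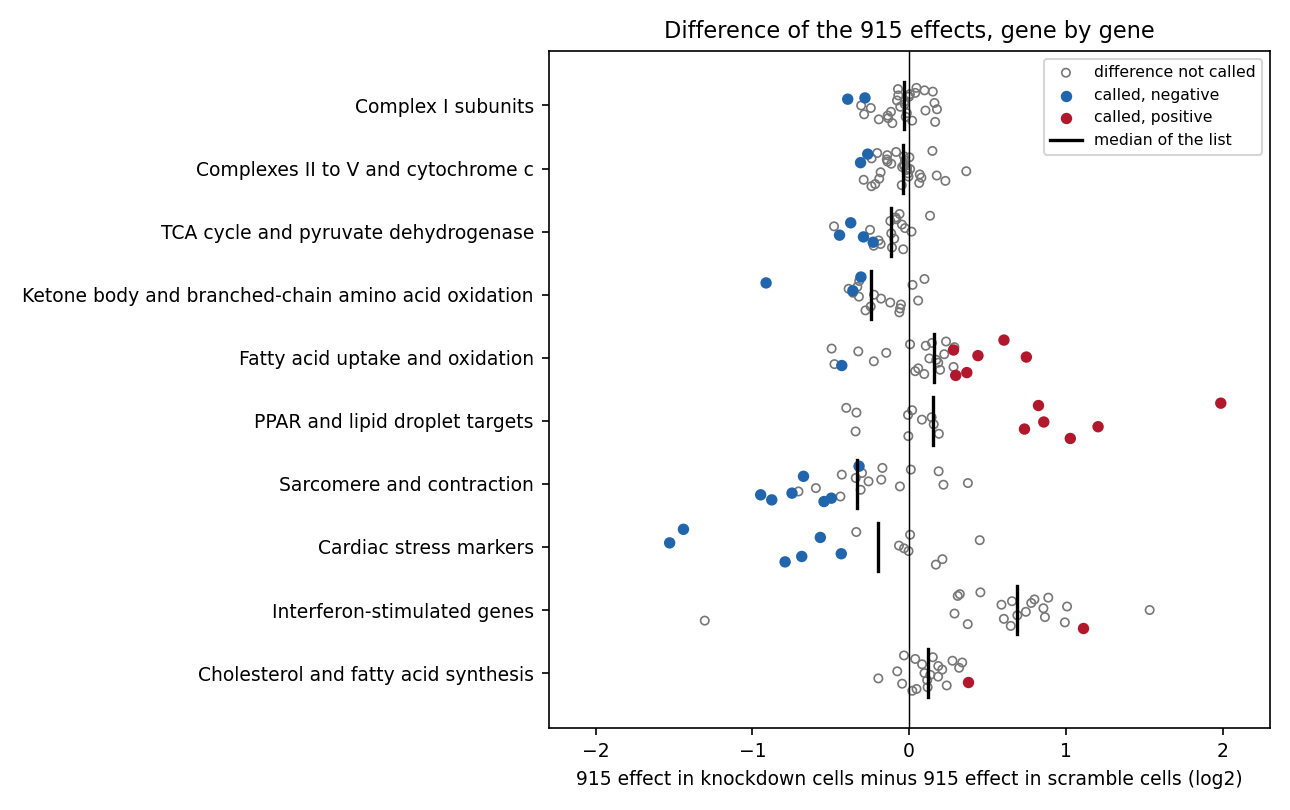
Each point is the log2 difference of the 915 effects, double-knockdown cells minus scramble cells, of 1 tested gene of the named list; filled points passed the test, open points did not, a vertical bar is the list's median, and 1 gene lies outside the axis. Complex I and complexes II to V gather near 0, sarcomeric and stress genes reach to the left with 7 and 6 called negative differences, and PPAR and lipid droplet targets reach to the right with 6 called positive ones.

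For fatty acid genes the direction was the opposite: 915 lowered them in S cells, and lowered several of them less in DKD cells. Of 16 tested PPAR and lipid droplet targets, 9 fell in DKD cells and 10 in S cells, and 6 had a called positive difference (37.5%, against 1.74% of all genes) and 0 a negative one, a count that stayed at 6 whichever library was left out. Of 26 genes of fatty acid uptake and oxidation, 15 fell in DKD cells and 17 in S cells, with median effects of −0.20 and −0.34. There 6 differences were called positive (23.1%) and 1 negative, and the positive count was 3 without DKD 915 replicate 3, DKD vehicle replicate 1 or 3, S vehicle replicate 1 or 3, or any 1 of the S 915 libraries. Without DKD 915 replicate 3 the negative count was 4, so that neither direction then prevailed.

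In 1 set of these genes the 915 levels of the 2 kinds of cell met, and the vehicle levels were apart. Pdk4, a kinase that shuts off pyruvate oxidation (ENSRNOG00000009565, rn6 chromosome 4, 30546664 to 30556814), had 76.4, 64.4 and 74.99 CPM with 915 and 188, 163 and 166 CPM with vehicle in DKD cells. In S cells Pdk4 had 79.9, 82.8 and 69.7 CPM with 915 and 359.5, 303 and 347 CPM with vehicle. The DKD and S libraries with 915 overlapped, whereas every DKD library with vehicle lay below every S library with vehicle, and the log2 effects of −1.26 in DKD cells and −2.12 in S cells differed by 0.86 (SE 0.12, adjusted p = 0.000992). Decr1, an auxiliary enzyme for unsaturated fatty acids, had 74.5, 68.1 and 81.7 CPM with 915 and 125, 122 and 124 CPM with vehicle in DKD cells. In S cells Decr1 had 70.1, 77.3 and 64.1 CPM with 915 and 197, 187 and 203 CPM with vehicle. The effects on Decr1 differed by 0.75 (SE 0.09, adjusted p = 2.75e-05). Ech1, an isomerase of the same pathway, had 258, 248 and 288 CPM with 915 and 393, 392 and 384 CPM with vehicle in DKD cells. In S cells Ech1 had 231, 261 and 243 CPM with 915 and 519.5, 451 and 498 CPM with vehicle. The effects on Ech1 differed by 0.44 (SE 0.08, adjusted p = 0.00272). For both genes the kinds of cell overlapped under 915 and not under vehicle. Ucp3, an uncoupling protein of muscle mitochondria (ENSRNOG00000017716, rn6 chromosome 1, 165482155 to 165496206), had 3.30, 2.14 and 1.59 CPM with 915 and 5.46, 4.16 and 6.12 CPM with vehicle in DKD cells. In S cells Ucp3 had 1.72, 2.06 and 1.98 CPM with 915 and 18.3, 15.8 and 17.8 CPM with vehicle. Its difference of 1.99 (SE 0.32, adjusted p = 0.000405) was the greatest positive one among the named genes, and its levels with 915 were low in all 6 libraries.

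In another set the level under 915 stayed higher in DKD cells. Angptl4, an inhibitor of lipoprotein lipase, had 471, 483 and 482 CPM with 915 and 698, 664 and 689 CPM with vehicle in DKD cells. In S cells Angptl4 had 241, 239.7 and 211 CPM with 915 and 664, 683 and 668 CPM with vehicle. The vehicle groups overlapped, and all 3 DKD libraries with 915 lay above all 3 S libraries with 915 (difference 1.03, SE 0.07, adjusted p = 3.21e-09). Ucp2, a carrier of the inner mitochondrial membrane, had 384, 393 and 435 CPM with 915 and 588, 564 and 568 CPM with vehicle in DKD cells. In S cells Ucp2 had 246, 283 and 234 CPM with 915 and 643, 620.1 and 655 CPM with vehicle. The effects on Ucp2 differed by 0.82 (SE 0.08, adjusted p = 1.90e-06). Lipe, the hormone-sensitive lipase, had 29.7, 27.6 and 32.5 CPM with 915 and 53.9, 52.9 and 50.96 CPM with vehicle in DKD cells. In S cells Lipe had 11.2, 13.2 and 10.4 CPM with 915 and 49.1, 44.9 and 46.5 CPM with vehicle. The effects on Lipe differed by 1.21 (SE 0.12, adjusted p = 1.85e-06). Both fell in each kind of cell without overlap, and the knockdown effect with vehicle was not called for Ucp2 (−0.16) or Lipe (0.17). Aqp7, a glycerol channel of the same list, fell by 2.34 in DKD cells and 2.33 in S cells, with a difference of −0.01 that was not called.

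The other called fatty acid genes were Acadm (0.37), Acaa2 (0.30) and Etfdh (0.28), enzymes of the oxidation spiral and of its electron transfer, each less lowered in DKD cells. Acsl1, which couples fatty acids to coenzyme A, went the other way with 177, 150.1 and 177 CPM with 915 and 328, 306 and 313 CPM with vehicle in DKD cells. In S cells Acsl1 had 474, 489.5 and 501 CPM with 915 and 707, 638 and 698 CPM with vehicle. It fell in both, more so in DKD cells (difference −0.43, SE 0.08, adjusted p = 0.0027). Cpt1b, the muscle form of the carnitine entry enzyme, was called in neither kind of cell. Its difference of −0.23 (SE 0.10, adjusted p = 0.274) was not called, but was without DKD 915 replicate 3 (−0.34, adjusted p = 0.011).

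**Figure D4:**
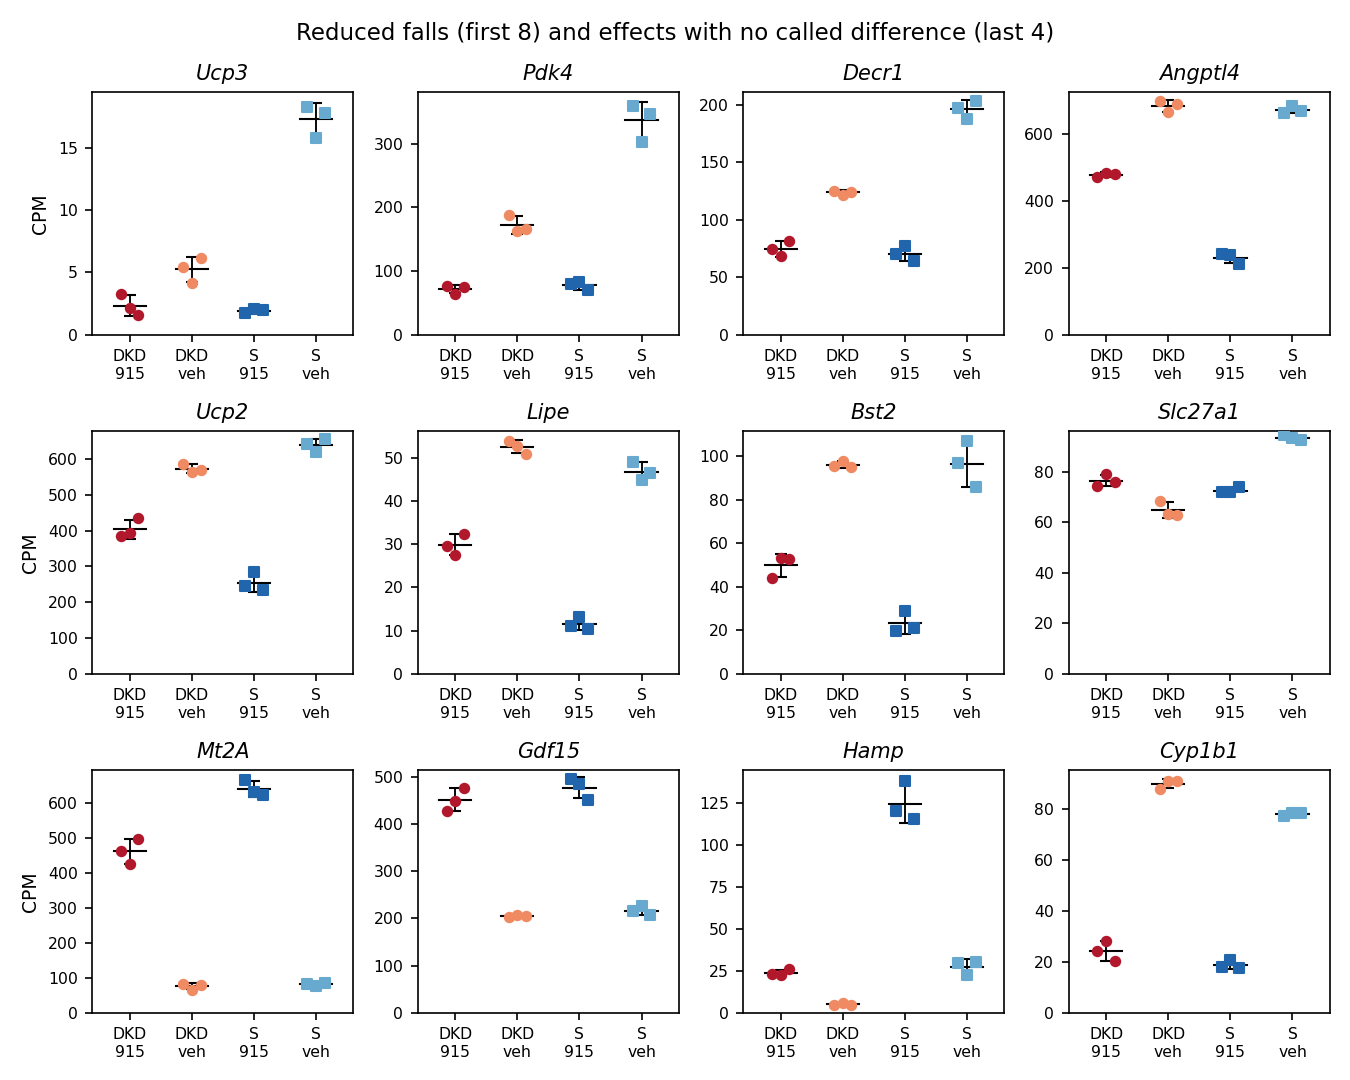
CPM of 12 genes in each library, for double-knockdown (DKD) and scramble (S) cells with 915 or vehicle (veh), with the mean as a horizontal line and the SD as an error bar over 3 libraries; each panel has its own linear axis from 0. In the first 8 panels the fall seen in S cells is smaller in DKD cells or, for Slc27a1, turned into a rise, and in the last 4 (Mt2A, Gdf15, Hamp and Cyp1b1) no difference was called.

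Protective responses were partly reduced. Of 12 tested NRF2 targets, which defend against oxidants, 9 rose in DKD cells and 9 in S cells, and 4 had a called negative difference (33.3%) and 0 a positive one. Txnrd1, the thioredoxin reductase, had 457, 435 and 488 CPM with 915 and 394, 391 and 416 CPM with vehicle in DKD cells. In S cells Txnrd1 had 918, 931 and 952 CPM with 915 and 574, 539 and 586 CPM with vehicle. The effects on Txnrd1 differed by −0.52 (SE 0.07, adjusted p = 6.51e-05). Srxn1, which repairs peroxiredoxins, rose by 0.55 in DKD cells and 1.01 in S cells (difference −0.46, SE 0.09, adjusted p = 0.00349), and Gsta4, a glutathione transferase, by 0.59 and 1.22 (difference −0.63, SE 0.13, adjusted p = 0.00756). All 3 rose in both kinds of cell without overlap. Of 11 heat shock genes and chaperones 9 rose in each kind of cell, and 3 had a called negative difference (27.3%), among them Hspb7 (−0.65, SE 0.10, adjusted p = 0.000402) and Hspb8 (−0.46, SE 0.07, adjusted p = 0.000374), small heat shock proteins of muscle. Cryab, the lens and muscle chaperone alpha B crystallin (−0.27), and the autophagy receptor Sqstm1 (−0.28), the fourth NRF2 target and the 1 called of 19 autophagy and lysosome genes, lost their calls without several single libraries, S 915 replicate 3 among them (adjusted p = 0.0872 and 0.0726). In the integrated stress response, a program that slows translation, 15 of 17 genes rose in DKD cells and 12 in S cells, with medians of 0.58 and 0.54, 1 called negative difference (Ddit3, the stress factor CHOP, −0.32) and 1 called positive (Phgdh, the first enzyme of serine synthesis, 0.31), neither of which passed without S 915 replicate 3.

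Several large responses to 915 showed no called difference by edgeR with all libraries. Mt2A, a metallothionein that binds zinc, had 463, 427 and 497 CPM with 915 and 83.5, 66.5 and 78.4 CPM with vehicle in DKD cells. In S cells Mt2A had 665, 633 and 623 CPM with 915 and 83.5, 76.6 and 86.5 CPM with vehicle. It rose by 2.60 in DKD cells and 2.96 in S cells; the difference of −0.36 (SE 0.10, adjusted p = 0.063) was not called, but was without DKD 915 replicate 3 (−0.42, adjusted p = 0.0281) or DKD vehicle replicate 2 (−0.44, adjusted p = 0.00695), with no count filter (adjusted p = 0.00209) and by DESeq2 (adjusted p = 0.0163). Of the 9 metallothionein and zinc transport genes 0 had a called difference by edgeR and 1, Mt2A, by DESeq2, and 3 had an unadjusted p under 0.05. Gdf15, a stress cytokine, had 427, 449 and 476 CPM with 915 and 203, 207 and 206 CPM with vehicle in DKD cells. In S cells Gdf15 had 494, 485 and 451 CPM with 915 and 215, 227 and 207 CPM with vehicle. The 95% interval of its difference ran from −0.15 to 0.15. Hamp, which encodes hepcidin, a hormone of iron balance, had 23.3, 22.7 and 26.01 CPM with 915 and 4.62, 5.71 and 4.69 CPM with vehicle in DKD cells. In S cells Hamp had 120.3, 138 and 116 CPM with 915 and 29.7, 22.4 and 30.4 CPM with vehicle. Its level was lower in DKD cells with and without 915, while the log2 rise of 2.26 in DKD cells and 2.18 in S cells differed by 0.08 with an interval of −0.26 to 0.42. Other rises kept within ±0.5 were those of Lcn2, an iron-scavenging protein (0.23 with an interval of 0.02 to 0.45), Abcg1, a cholesterol exporter (−0.06 with an interval of −0.29 to 0.17), Pla2g7, a lipoprotein-bound phospholipase (0.05 with an interval of −0.15 to 0.24), Fabp5, a fatty acid binding protein (0.27 with an interval of 0.05 to 0.49), and Lgals3, the lectin galectin-3 (0.03 with an interval of −0.23 to 0.29).

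Kept falls included 1 target of the aryl hydrocarbon receptor and an enzyme of sterol synthesis. Cyp1b1, a cytochrome P450 induced through the aryl hydrocarbon receptor, had 24.4, 28.1 and 20.3 CPM with 915 and 87.8, 90.8 and 90.8 CPM with vehicle in DKD cells. In S cells Cyp1b1 had 18.1, 20.6 and 17.7 CPM with 915 and 77.2, 78.3 and 78.4 CPM with vehicle. The difference for Cyp1b1 was 0.16 with an interval of −0.09 to 0.41. Cyp1a1, the classical target of that receptor, fell by 3.40 in DKD cells and 3.02 in S cells, and its difference was −0.38 with an interval of −1.10 to 0.34, which is wider than the bound. Of the 7 listed targets 6 fell in DKD cells and 5 in S cells, with medians of −1.62 and −0.56 and 0 called differences by edgeR or DESeq2 and 1 at an unadjusted p under 0.05. Of 21 genes of cholesterol and fatty acid synthesis, 16 fell in each kind of cell, with medians of −0.55 in DKD cells and −0.56 in S cells, and 1 had a called difference, positive (4.76%). That was Fdft1, squalene synthase (0.38), which was not called without DKD vehicle replicate 3 (adjusted p = 0.0587), S 915 replicate 3 (0.052) or S vehicle replicate 2 (0.0551). Idi1, an isomerase of the sterol pathway (0.14 with an interval of −0.19 to 0.46), Hmcn1, a basement membrane protein (0.08 with an interval of −0.15 to 0.31), and Sdpr, a protein of caveolae (−0.01 with an interval of −0.21 to 0.20), also fell within that bound. Iron handling genes rose in 6 of 9 cases in each kind of cell, against 18.1% of all genes in DKD cells and 21.5% in S cells. They had 0 called differences by edgeR or DESeq2 and 3 at an unadjusted p under 0.05. Of the 9 intervals 8 lay within ±0.5, which can also hold for a small effect that is lost.

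Matrix and interferon genes had less negative median effects in DKD cells, with few calls. Of 24 extracellular matrix genes 16 fell in DKD cells and 19 in S cells, with medians of −0.51 and −0.88, and 3 had a called positive difference (12.5%): Bgn, the proteoglycan biglycan (0.41), Sparc, a matrix glycoprotein (0.33), both less lowered in DKD cells, and Timp1, an inhibitor of matrix proteases, which rose there (0.34). This count was 9 without DKD 915 replicate 3, 6 without DKD vehicle replicate 2, 5 without S 915 replicate 1, 1 without DKD vehicle replicate 3, S 915 replicate 2 or S vehicle replicate 2 or 3, and 0 without DKD vehicle replicate 1 or S 915 replicate 3. Cnn1, the smooth muscle protein calponin, fell by 0.84 in DKD cells and 1.18 in S cells (difference 0.35), as the 1 called of 8 smooth muscle and pericyte markers. Its call was lost without S 915 replicate 3 (adjusted p = 0.118) and 6 other single libraries, whereas the count was 3 without S 915 replicate 1, 2 without DKD 915 replicate 1 and 2 by DESeq2. Of the 12 fibroblast markers 0 had a called difference by edgeR and 2 by DESeq2 (4 at an unadjusted p under 0.05), and of the 7 endothelial markers 0 by edgeR and 1 by DESeq2 (2 at an unadjusted p under 0.05). The fibroblast marker sums stood lower with 915 than with vehicle in both kinds of cell, as given above, and their part in the matrix result was not tested. Of 21 interferon-stimulated genes 13 fell in DKD cells and 17 in S cells, with medians of −0.70 and −1.35, and 1 had a called difference. This count was 3 without S 915 replicate 2, 2 without S vehicle replicate 3 and 4 by DESeq2. Bst2, the antiviral membrane protein tetherin, had 43.9, 53.01 and 52.6 CPM with 915 and 95.6, 97.99 and 94.9 CPM with vehicle in DKD cells. In S cells Bst2 had 19.7, 28.7 and 21.03 CPM with 915 and 96.9, 107 and 85.8 CPM with vehicle. The vehicle groups overlapped and all DKD libraries with 915 lay above all S libraries with 915 (difference 1.11, SE 0.18, adjusted p = 0.00417). The intervals of this list were wide, and 1 of the 21 lay within ±0.5. Icam1, an adhesion molecule for leukocytes, fell by 0.45 in DKD cells and 0.89 in S cells (difference 0.44, SE 0.07, adjusted p = 0.000624), and of 3 called among 12 inflammatory genes it alone kept its call whichever library was left out; Ccl7 (0.49) and Cxcl1 (0.57), both chemokines, did not. Of 25 cell cycle genes 6 fell in DKD cells and 14 in S cells, against 17.6% and 20.6% of all tested genes. Their medians were −0.15 and −0.40, with 0 called differences by edgeR or DESeq2 and 5 at an unadjusted p under 0.05.

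**Figure D5:**
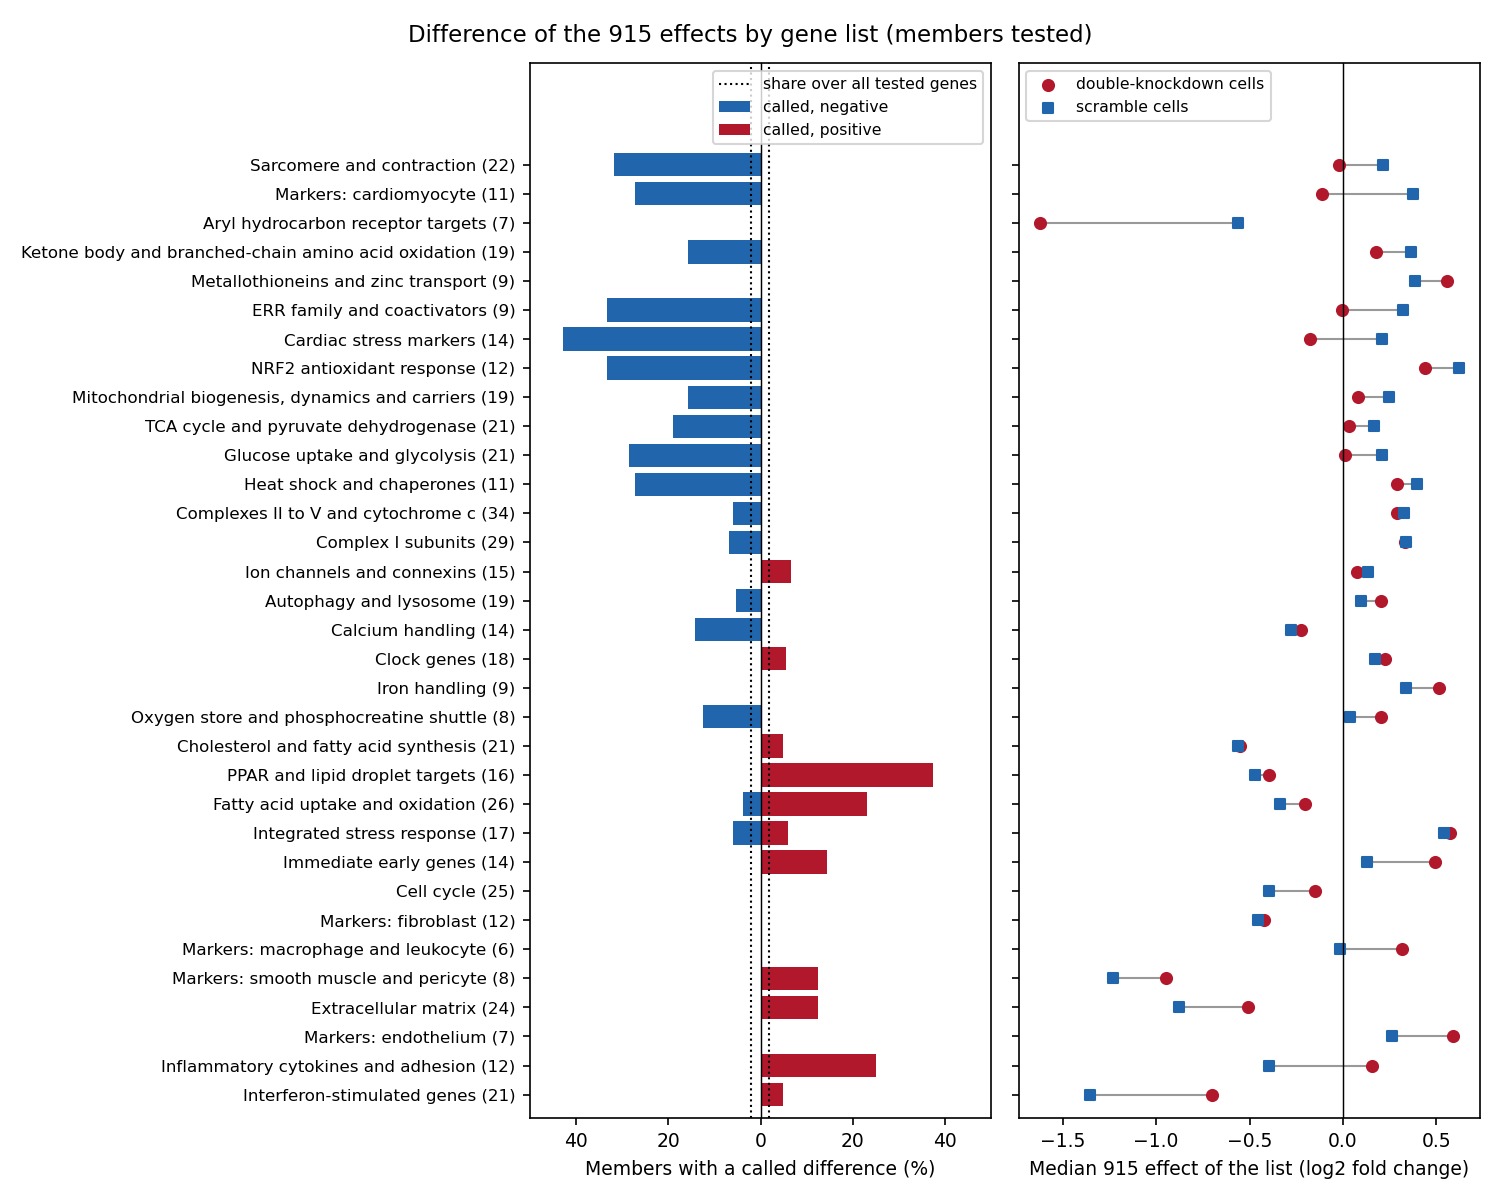
Left, the percentage of tested members of each gene list with a called negative (blue, leftward) or positive (red, rightward) difference of the 915 effects, with dotted lines at the shares over all tested genes, 1.99% and 1.74%; right, the list's median 915 effect in double-knockdown cells (circles) and scramble cells (squares) as log2 fold change. Cardiac stress markers reach 42.9% on the negative side and PPAR and lipid droplet targets 37.5% on the positive side, and the medians of the respiratory chain lists nearly coincide. The lists were chosen with earlier results of these data known.

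For another group of genes 915 had a called effect in DKD cells and none in S cells, with a called difference. C4b, a complement component, had 43.8, 48.3 and 47.6 CPM with 915 and 24.6, 23.7 and 24.5 CPM with vehicle in DKD cells. In S cells C4b had 21.7, 25.7 and 23.9 CPM with 915 and 22.5, 29.5 and 19.5 CPM with vehicle, so that only the DKD libraries with 915 stood apart. The effects on C4b differed by 0.95 (SE 0.16, adjusted p = 0.000758). Gja5, the gap junction protein connexin 40, had 72.7, 62.2 and 65.98 CPM with 915 and 36.98, 38.5 and 39.6 CPM with vehicle in DKD cells. In S cells Gja5 had 33.97, 41.4 and 34.9 CPM with 915 and 39.8, 39.9 and 34.01 CPM with vehicle, with the same arrangement. It was the 1 called of 15 genes of ion channels and connexins. The effects on Gja5 differed by 0.85 (SE 0.12, adjusted p = 9.76e-05). Gcgr, the glucagon receptor, had 12.3, 11.95 and 12.6 CPM with 915 and 6.29, 7.21 and 4.87 CPM with vehicle in DKD cells. In S cells Gcgr had 16.7, 16.8 and 18.3 CPM with 915 and 20.6, 20.9 and 20.002 CPM with vehicle. It rose in DKD cells, where its level stayed below that of S cells throughout (difference 1.25, SE 0.18, adjusted p = 0.000117). Egr1, an immediate early transcription factor, rose by 0.57 in DKD cells and had an effect of −0.02 in S cells (difference 0.59, SE 0.12, adjusted p = 0.00569). Of the 14 immediate early genes 8 rose in DKD cells and 5 in S cells, against 18.1% and 21.5% of all tested genes, and 2 had a called difference. Fos, another of them (0.74), was called with all libraries and not without S 915 replicate 3 (adjusted p = 0.053). Pla2g5, a secreted phospholipase, fell in DKD cells with 6.29, 7.08 and 8.44 CPM with 915 and 13.5, 13.6 and 12.5 CPM with vehicle. In S cells Pla2g5 had 31.3, 29.5 and 32.996 CPM with 915 and 29.6, 25.4 and 29.2 CPM with vehicle. The effects on Pla2g5 differed by −1.01 (SE 0.16, adjusted p = 0.000301). The locus LOC100360117 (1.01), a gained rise, and Ppp1r9a, a scaffold of a protein phosphatase (−1.06), a gained fall, were not called without S 915 replicate 3 (adjusted p = 0.052 and 0.085).

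For 38 genes 915 acted in opposite directions in the 2 kinds of cell, 27 that rose and 11 that fell in S cells. In 24 and 9 of them neither pair of groups overlapped, which is favoured by choosing genes called in both kinds of cell. Of the 7448 genes without a called 915 effect, the S groups were apart in 1426 and the DKD groups in 1173. Fhl1, a LIM protein of the sarcomere, had 774, 717 and 720.4 CPM with 915 and 917, 953 and 979.6 CPM with vehicle in DKD cells. In S cells Fhl1 had 1257, 1209 and 1283 CPM with 915 and 974, 996 and 1036 CPM with vehicle. The effects on Fhl1 differed by −0.69 (SE 0.07, adjusted p = 1.48e-06). Ldha, the lactate dehydrogenase subunit that favours lactate, had 601, 559 and 625 CPM with 915 and 708, 739.6 and 718 CPM with vehicle in DKD cells. In S cells Ldha had 1047, 1048 and 1107 CPM with 915 and 917, 841 and 867 CPM with vehicle. The effects on Ldha differed by −0.57 (SE 0.07, adjusted p = 2.89e-05). Jph2, which ties the T tubule to the calcium store, had 133, 141 and 156 CPM with 915 and 191, 197 and 184 CPM with vehicle in DKD cells. In S cells Jph2 had 261, 253 and 265 CPM with 915 and 229, 224 and 226 CPM with vehicle. The effects on Jph2 differed by −0.61 (SE 0.07, adjusted p = 1.79e-05). All 3 were lowered by 915 after the knockdown and raised without it. The reverse held for Slc27a1, a fatty acid transporter, with 74.4, 79.1 and 76.01 CPM with 915 and 68.5, 63.3 and 62.8 CPM with vehicle in DKD cells. In S cells Slc27a1 had 71.8, 71.96 and 73.8 CPM with 915 and 94.4, 93.4 and 92.5 CPM with vehicle. The effects on Slc27a1 differed by 0.60 (SE 0.08, adjusted p = 5.03e-05). Ckmt1b, a mitochondrial creatine kinase, also rose in DKD cells and fell in S cells, with 5.66, 5.39 and 6.98 CPM with 915 and 3.90, 3.21 and 3.74 CPM with vehicle in DKD cells. In S cells Ckmt1b had 3.97, 4.53 and 4.31 CPM with 915 and 6.99, 5.43 and 7.10 CPM with vehicle. The effects on Ckmt1b differed by 1.34 (SE 0.28, adjusted p = 0.00661).

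Calcium handling held another lost rise. Pln, the gene of phospholamban, which restrains the calcium pump, had 1052, 843 and 1035 CPM with 915 and 1039, 974 and 1076 CPM with vehicle in DKD cells, which overlapped. In S cells Pln had 2205, 2229.5 and 2339.5 CPM with 915 and 1684, 1520.3 and 1765 CPM with vehicle, which did not overlap. The effects on Pln differed by −0.52 (SE 0.10, adjusted p = 0.00741). Together with Jph2 it made the 2 called members of 14 (14.3%). Of the 14, 8 fell in DKD cells and 9 in S cells, against 17.6% and 20.6% of all tested genes. Without DKD 915 replicate 3 the count was 4. Mb, the gene of the oxygen store myoglobin, was not called in either kind of cell, with 58.4, 57.7 and 67.6 CPM with 915 and 67.3, 48.2 and 54.2 CPM with vehicle in DKD cells. In S cells Mb had 439, 486 and 418 CPM with 915 and 573, 519 and 533 CPM with vehicle. Its difference of 0.39 (SE 0.16, adjusted p = 0.255) was not called and became 0.54 (adjusted p = 0.00773) without DKD vehicle replicate 1.

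Effects enlarged by the knockdown were few. Beside Actn2 and Acsl1, the falls of Fblim1, a filamin-binding adhesion protein (−0.45, SE 0.08, adjusted p = 0.00186), and Cgnl1, a junction protein (−0.58, SE 0.10, adjusted p = 0.00126), were larger in DKD cells. Rises were larger for Snx8, a protein of endosomal sorting, with 54.6, 53.9 and 68.2 CPM with 915 and 23.8, 25.4 and 28.98 CPM with vehicle in DKD cells. In S cells Snx8 had 60.3, 68.1 and 67.2 CPM with 915 and 46.2, 44.6 and 44.8 CPM with vehicle. The effects on Snx8 differed by 0.65 (SE 0.12, adjusted p = 0.00292). The levels of Snx8 with 915 overlapped between the kinds of cell and those with vehicle did not. The rise was also larger for Nfil3, a repressor of the circadian system (0.53, SE 0.11, adjusted p = 0.00844), the 1 called of 18 clock genes. The larger rise of Sik1, a kinase (0.40), was not called without S 915 replicate 3 (adjusted p = 0.118).

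Further genes led by the size of their difference. Gnb3, a G protein beta subunit, had 1.81, 3.44 and 4.25 CPM with 915 and 2.95, 4.60 and 3.68 CPM with vehicle in DKD cells. In S cells Gnb3 had 58.9, 60.8 and 71.9 CPM with 915 and 25.9, 23.7 and 21.6 CPM with vehicle. The effects on Gnb3 differed by −1.64 (SE 0.29, adjusted p = 0.00607). Thus its rise with 915 was seen in S cells without overlap, and its level in DKD cells was low with and without 915. Mpeg1, named for a pore protein of macrophages but annotated here as a pseudogene, had 9.04, 8.51 and 8.18 CPM with 915 and 9.75, 10.1 and 8.73 CPM with vehicle in DKD cells, which overlapped. In S cells Mpeg1 had 2.38, 1.94 and 2.32 CPM with 915 and 8.58, 7.003 and 5.15 CPM with vehicle, which did not overlap. The effects on Mpeg1 differed by 1.49 (SE 0.27, adjusted p = 0.00159). Of the 6 tested macrophage and leukocyte markers 0 had a called difference by edgeR or DESeq2, and 1 had an unadjusted p under 0.05. Slc22a3, an organic cation transporter (1.44), was likewise less lowered in DKD cells, Cdh17, a cadherin (−1.19), was less raised, and Fam181b (1.49) had an uncalled effect in DKD cells and fell in S cells. Mfsd4 (−2.23), Atp4a, the stomach proton pump (−1.62), Nmrk2, a kinase of NAD synthesis (−1.31), and Arap3, a regulator of small GTPases (1.41), were called with all libraries and each missed the threshold without S 915 replicate 3 (adjusted p = 0.058, 0.107, 0.0888 and 0.0583), as well as without other single libraries. In DKD cells Mfsd4, Atp4a and Nmrk2 had means of 0.64, 0.66 and 1.62 CPM with 915 and 0.88, 0.77 and 0.98 CPM with vehicle. Little of these transcripts was thus left there in which to measure a 915 effect.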

How the data were processed

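Poly(A) RNA from 12 rat libraries was sequenced from unstranded paired-end libraries, per the labels' protocols. Raw counts per gene were deposited by the authors, whose processing notes name HISAT2 2.0.5, StringTie 1.3.3b, featureCounts 1.5.0-p3, DESeq2 1.20.0 and build rn6, without roles or settings. Of 32545 genes, 9390 had no count. Genes were kept by edgeR's filterByExpr (count minimum 10), scaled by TMM and fitted with edgeR 4.0.16 in R 4.3.3 by robust quasi-likelihood over the 4 groups; the contrast was (DKD 915 minus DKD vehicle) minus (S 915 minus S vehicle), with Benjamini-Hochberg adjustment and a threshold of 0.05. The test was tried on simulated data, where it recovered 64 of 100 differences of 1 and 36 of 100 of 0.5 on the log2 scale. Of its 111 calls there, 11 were on unchanged genes, a share above the threshold of 0.05. Standard errors are the fold change over the root of F. Alternatives were RLE factors, other filters, DESeq2 1.42.0, removal of mitochondrially encoded genes, a replicate block and leaving out each library. Named genes needed at least 5 CPM in a group and came from rules: the 8 lowest and 8 highest differences among reduced rises and falls, the 3 largest in each direction among enlarged and gained effects, the 6 largest kept rises and falls, up to 4 called members of each list by adjusted p, and 20 fixed genes. Other members complete a list's count. Members and lists were chosen with earlier results of these data known. No 2 libraries of a group agreed within sampling noise. Genes with near-identical copies are uncertain where reads could be split. Rat sequences were not used here. A few genes that the rules or lists name are not reported here, and they stay in the list counts.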

Additional observations from a re-analysis of the deposited data

Results flagged for a closer look

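The difference between DKD and S cells in the 915 effect was itself a test of unequal effects in 2 kinds of cell, and it was called for 566 genes (edgeR). Of the genes named, 5 had called 915 effects of opposite sign in the 2 kinds of cell. Ckmt1b rose in DKD cells and fell in S cells, with a difference of 1.34 on the log2 scale, and Slc27a1 did so with a difference of 0.60. Fhl1 (−0.69), Ldha (−0.57) and Jph2 (−0.61) fell in DKD cells and rose in S cells. In all 5 genes neither pair of groups overlapped, which is favoured by choosing genes called in both kinds of cell.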

How the results depend on the processing

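Of the 84 named genes with a called difference, 55 lost their call under none of the 18 alternatives that gave them a value, 12 of which leave out 1 library each, 29 lost it under at least 1, and none reversed. Genes called in any direction numbered 563 with RLE factors, 542 with the replicate block, 726 without a count filter and 760 with DESeq2. With DESeq2 the positive calls were 406 (264 with edgeR), and enlarged effects, 23 in the main count, were 43 with DESeq2, 36 with a stricter filter and 35 without a filter. Leaving out 1 library gave 259 to 677 called differences, 156 to 377 negative, 103 to 300 positive, 124 to 292 reduced rises, 86 to 245 reduced falls, 12 to 38 enlarged, 33 to 105 gained and 62 to 139 kept effects. The cause of these changes was not tested. Same-numbered libraries did not deviate together (correlations of −0.0529 to 0.0401 over 18 pairs). Whether they shared a cell isolation is not stated, and these correlations cannot show it. The replicate block also called Mt2A (adjusted p = 0.0135) and Myh6 (0.0122) and not Dlst (0.0638). Only uncalled differences changed sign. Gdf15 was 0.0004294 with RLE factors, 0.0006002 with DESeq2, 0.01079 with the stricter filter and 0.002092 without mitochondrially encoded genes, Aqp7 0.009287 with the stricter filter and 0.0006825 without mitochondrially encoded genes, and Sdpr 0.009227 with the stricter filter. Leaving out 1 library gave −0.047 to 0.038 for Gdf15, −0.31 to 0.15 for Aqp7, −0.081 to 0.067 for Sdpr, −0.041 to 0.11 for Lgals3, −0.17 to 0.049 for Nppa, −0.11 to 0.032 for Abcg1, −0.30 to 0.067 for Esrrb, −0.67 to 0.050 for Cyp1a1 and −0.014 to 0.12 for Pla2g7. With 3 libraries a group precision was limited, and 48.3% of all intervals of the difference lay within ±0.5.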
